A study of Mus musculus with 6 samples.

Results

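Excitation-contraction coupling is the step by which an electrical signal at the surface of a muscle fibre releases calcium from the sarcoplasmic reticulum (SR), the fibre's internal calcium store. The 10 genes examined encode parts of this machinery: the voltage sensor of the transverse tubule and its partners (Cacna1s, Cacnb1, Cacng1 and Stac3), the ryanodine receptors through which calcium leaves the SR (Ryr1 and Ryr3), a protein that ties both membranes together (Jph1), the calcium-binding proteins inside the SR (Casq1 and Casq2) and the pump that returns calcium to it (Atp2a1). They were taken by gene symbol, and all 10 were found among the 18943 genes of the deposited table. The libraries came from FACS-purified muscle stem cells (MuSCs) of wild-type C57BL/6 mice that were 8 weeks old. The cells had been kept in culture for 5 days with DMSO, with endothelin-3 (ET-3) or with neurotensin (NT), and 2 libraries of each group were used here, although the design text speaks of triplicates. Both peptides act on G protein-coupled receptors, and DMSO, their solvent, was the control. The labels give 100 nM for both ligands, whereas the methods of the paper give other concentrations. Neither source says how many mice or cultures stand behind a library, so the p-values measure the spread between these libraries only.

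In resting muscle fibres the voltage sensor, a calcium channel in the transverse tubule, faces the ryanodine receptor in the SR at a junction called the triad. When the sensor moves, the receptor opens and calcium held by calsequestrin flows out to the contractile filaments, and the calcium ATPase then pumps it back. These genes belong to differentiated muscle. MuSCs that rest beside a fibre do not contract, and the coupling machinery is built up when activated MuSCs differentiate and fuse.

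The question put to the data was how far this machinery differed in MuSCs cultured with either ligand. All 10 genes had lower values with ET-3 and with NT than with DMSO. In each gene both ET-3 libraries lay below both DMSO libraries, as they did in 40.7% of all tested genes. Both NT libraries did so too, as in 41.7% of all tested genes. The voltage sensor gene Cacna1s and both calsequestrin genes were near 0 in the treated libraries. Atp2a1 kept 2.21% of its DMSO mean with ET-3 and 3.29% with NT, and Ryr1 kept 6.85% and 7.63%. Cacnb1, Cacng1, Stac3 and Jph1 kept between 16.9% and 30.2%. In a bulk library, fewer cells that express a gene and less RNA per cell cannot be told apart.

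Values are given as deposited. They are read counts that had been multiplied by 1 factor per library and rounded, here called scaled reads, so that libraries can be compared. The factors recovered from the values ran from 0.781 to 1.19, and 3629074 to 5396233 reads fell on genes in a library. The ET-3 pair and the NT pair each differed by less than the sampling noise of reads, as a chi-square averaging 0.891 and 0.953 per gene shows, against 1.45 in the DMSO pair. Differences were tested with limma on log2(value + 1) over the 13921 genes whose values averaged 5 or more, and a gene was said to fall or rise when its Benjamini-Hochberg adjusted p was at most 0.05 and the difference at least 2-fold. All 10 genes passed the filter on the mean, 4 of them (Cacna1s, Ryr3, Casq1 and Casq2) only through the DMSO libraries, where they were high. The ET-3 and NT comparisons share the 2 DMSO libraries and are therefore not independent of each other.

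By this rule 10 of the 10 genes fell with ET-3, where 14.9% of all tested genes fell, and 10 of the 10 fell with NT, where 13.2% of all tested genes fell. The 4 genes that passed the filter only through DMSO could hardly do otherwise, so they add no support to this count. The other 6 (Cacnb1, Cacng1, Stac3, Ryr1, Jph1 and Atp2a1) all fell with each ligand. The median log2 fold change of the 10 genes, those 4 included, was -3.63 with ET-3 and -4.00 with NT, beside -0.01 and -0.01 over all tested genes. Those 4 genes lower these medians, which therefore only describe the set. In the other 6 genes the values ran from -1.76 (Jph1) to -5.47 (Atp2a1) with ET-3. With NT they ran from -1.72 (Jph1) to -4.92 (Atp2a1). Placing Casq1, which had no read with ET-3, at its bound left the ET-3 median at -3.63. Treated libraries that all lie below both DMSO libraries were common, at 40.7% of all tested genes with ET-3 and 41.7% with NT. When the ET-3 pair and the NT pair were each averaged into 1 sample, the other 6 genes kept their direction. Their log2 fold changes then ran from -1.75 (Jph1) to -5.47 (Atp2a1) with ET-3 and from -1.72 (Jph1) to -4.90 (Atp2a1) with NT. That fit has 1 sample in each treated arm and takes the spread from the 2 DMSO libraries alone. It assumes that treated cultures vary as those do, so only effect sizes are given.

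**Figure D1:**
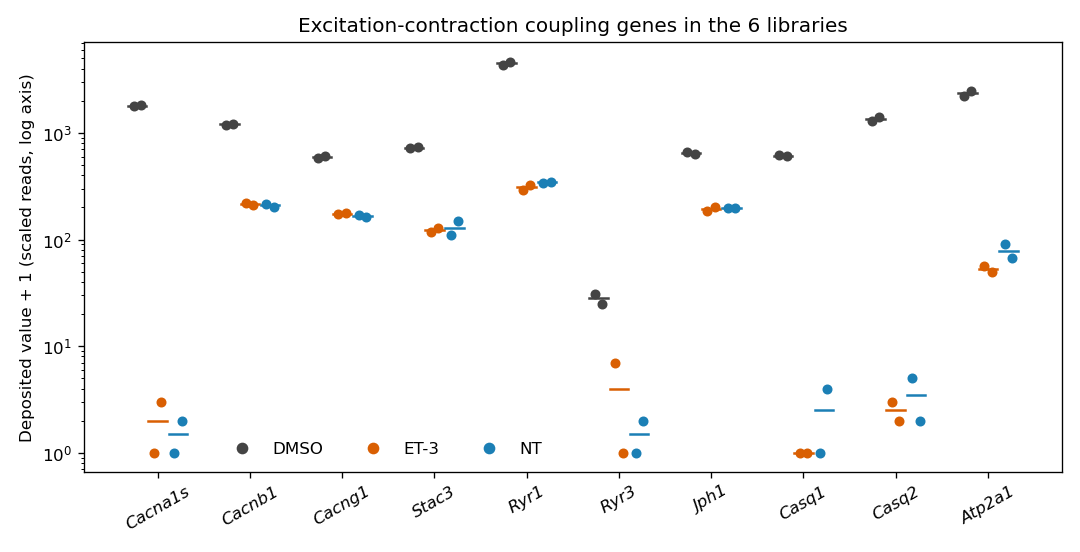
Deposited value plus 1 (scaled reads, log axis) of the 10 genes in each library, with points for the 2 DMSO (grey), 2 ET-3 (orange) and 2 NT (blue) libraries and horizontal lines at the group means. In every gene both DMSO points lie above the points of each ligand, as in 40.7% of all tested genes with ET-3 and 41.7% with NT. Cacna1s, Ryr3, Casq1 and Casq2 have treated points between 0 and 6 scaled reads.

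Cacna1s, Casq1, Casq2 and Atp2a1 had the largest log2 differences, and their promoter windows are printed to show the sequence around the starts of genes that moved together. The windows are RefSeq sequences of GRCm38.p6 and run from 250 bases before to 50 bases after a transcription start, in the direction of the gene. Cacna1s lies on the plus strand (chr1:136052561-136052860), Casq1 on the minus strand (chr1:172219846-172220145), Casq2 on the plus strand (chr3:102086165-102086464) and Atp2a1 on the minus strand (chr7:126463024-126463323). Capitals mark CAGCTG and CAGGTG, which are forms of the E-box CANNTG that myogenic bHLH factors bind, and in Casq2 a MEF2 motif.
Cacna1s: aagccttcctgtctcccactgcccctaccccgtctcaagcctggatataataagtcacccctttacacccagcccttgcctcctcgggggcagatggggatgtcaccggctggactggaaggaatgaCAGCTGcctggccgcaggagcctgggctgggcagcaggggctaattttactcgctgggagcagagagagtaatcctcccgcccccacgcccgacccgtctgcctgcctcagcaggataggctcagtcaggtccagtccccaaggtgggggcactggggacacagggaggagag
Casq1: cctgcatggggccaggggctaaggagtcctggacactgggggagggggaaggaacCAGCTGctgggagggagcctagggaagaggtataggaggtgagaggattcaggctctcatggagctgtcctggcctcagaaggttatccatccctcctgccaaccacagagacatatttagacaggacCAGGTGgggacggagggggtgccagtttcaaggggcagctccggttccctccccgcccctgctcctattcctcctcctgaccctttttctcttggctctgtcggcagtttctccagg
Casq2: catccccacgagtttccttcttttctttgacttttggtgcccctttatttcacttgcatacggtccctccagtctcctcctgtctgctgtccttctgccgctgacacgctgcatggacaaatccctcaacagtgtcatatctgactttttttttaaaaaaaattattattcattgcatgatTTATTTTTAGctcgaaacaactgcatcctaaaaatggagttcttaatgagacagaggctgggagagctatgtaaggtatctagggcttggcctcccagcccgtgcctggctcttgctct
Atp2a1: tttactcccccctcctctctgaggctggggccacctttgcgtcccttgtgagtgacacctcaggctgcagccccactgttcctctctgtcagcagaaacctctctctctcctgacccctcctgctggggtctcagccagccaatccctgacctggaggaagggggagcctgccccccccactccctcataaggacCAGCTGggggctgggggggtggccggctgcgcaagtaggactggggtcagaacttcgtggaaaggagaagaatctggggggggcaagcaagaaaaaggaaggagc
The motif CAGCTG began 123 bases before the start of Cacna1s, 195 before that of Casq1 and 55 before that of Atp2a1, and CAGGTG 67 bases before that of Casq1. The MEF2 motif began 69 bases before the start of Casq2. The table held 7 windows for 6 of the 10 genes, which adds Cacnb1 with 2 windows and Ryr1. Searched on both strands, CAGCTG was in 3 of the 7 windows and in 16.3% of all 32851 windows of this length, CAGGTG in 1 and in 20.2%, and the MEF2 motif in 1 and in 3.19%. The general form CANNTG, which includes both E-box forms above, was in 5 of the 7 windows and in 72.3% of all windows. The CArG box, found in 1.63% of all windows, and the letters TATAAA, found in 13.6%, were in 0 of the 7. These are matches of letters and not measured binding.

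Cacna1s (ENSMUSG00000026407, chr1:136052750-136119822 on GRCm38) encodes the pore-forming subunit of the skeletal muscle calcium channel, which is the voltage sensor itself. Its values were 1774 and 1834 in the DMSO pair, 0 and 2 in the ET-3 pair, and 0 and 1 in the NT pair. The treated libraries thus held 2 reads in all with ET-3 and 1 read with NT. By reads, DMSO exceeded ET-3 1581-fold (95% counting interval 437 to 13058) and NT 4414-fold (792 to 174412), where the intervals cover counting error only. The log2 fold change was -10.03 with ET-3 and -10.32 with NT (standard error 0.51, adjusted p = 1.07e-07 and 9.51e-08, limma, Benjamini-Hochberg). With pseudocount 5 the values were -8.26 and -8.37, and they moved with single libraries, to -9.23 without ET-3 replicate 1, -10.82 without ET-3 replicate 2, -9.82 without NT replicate 1 and -10.82 without NT replicate 2. With pseudocount 1 it ranked 3 from the lowest log2 fold change among the 13921 tested genes with ET-3 and 1 in the NT pair. Cacna1s passed the filter only through the DMSO libraries, so these ranks are a description and add no support.

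The auxiliary subunits of the channel fell by less. Cacnb1 (ENSMUSG00000020882, chr11:98001508-98023034), the intracellular beta subunit that brings the channel to the membrane, had values of 1194 and 1208 in the DMSO pair, 217 and 209 in the ET-3 pair, and 215 and 202 in the NT pair. It kept 17.7% of its DMSO mean with ET-3 and 17.4% with NT, and its log2 fold change was -2.49 and -2.52 (standard error 0.06, adjusted p = 1.71e-09 and 1.80e-09). Cacng1 (ENSMUSG00000020722, chr11:107703218-107716522), the gamma subunit, had values of 587 and 613 in the DMSO pair, 173 and 176 in the ET-3 pair, and 168 and 162 in the NT pair. It kept 29.1% and 27.5%, with a log2 fold change of -1.78 and -1.86 (standard error 0.07, adjusted p = 1.41e-08 and 1.17e-08). Stac3 (ENSMUSG00000040287, chr10:127501686-127508823), an adaptor that the channel needs to reach the triad and to couple to the ryanodine receptor, had values of 717 and 732 in the DMSO pair, 117 and 128 in the ET-3 pair, and 110 and 147 in the NT pair. Its log2 fold change was -2.56 and -2.50 (standard error 0.12, adjusted p = 6.48e-08 and 8.23e-08). In these 3 genes the groups were well apart and every treated library still held over 100 scaled reads, unlike Cacna1s.

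Ryr1 (ENSMUSG00000030592, chr7:29003344-29125179) encodes the calcium release channel of skeletal muscle and had the highest values of the 10 genes before any correction for length. It had 4361 and 4640 scaled reads with DMSO, 290 and 327 in the ET-3 pair, and 338 and 349 in the NT pair. The log2 fold change was -3.86 with ET-3 and -3.71 with NT (standard error 0.06, adjusted p = 2.05e-10 and 3.02e-10, limma, Benjamini-Hochberg). Ryr3 (ENSMUSG00000057378, chr2:112631355-113217096), a second ryanodine receptor that skeletal muscle carries mainly early in life, was low throughout. Its values were 30 and 24 in the DMSO pair, 6 and 0 in the ET-3 pair, and 0 and 1 in the NT pair, which is 52 reads with DMSO, 5 with ET-3 and 1 in the NT pair. By reads it was 9.66-fold higher with DMSO than with ET-3 (95% counting interval 3.88 to 31.0) and 67.4-fold higher than with NT (11.6 to 2713). The log2 fold change was -3.40 and -4.30 (standard error 0.79, adjusted p = 0.00374 and 0.000926). The call of Ryr3 depended on single DMSO libraries. Without DMSO replicate 1 the adjusted p was 0.0954 with ET-3 and 0.0527 with NT, and without DMSO replicate 2 it was 0.0782 and 0.0467 (limma, Benjamini-Hochberg, range over all alternatives 0.000138 to 0.0954 and 5.09e-06 to 0.0527). Without ET-3 replicate 2, which had no read, the ET-3 log2 fold change of Ryr3 was -1.99, and without ET-3 replicate 1 it was -4.80. With pseudocount 5 the values were -2.10 with ET-3 and -2.54 with NT. Ryr3 also shares 916 exonic bases with Aven on the opposite strand.

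Jph1 (ENSMUSG00000042686, chr1:16964560-17097889) encodes junctophilin 1, which spans the gap between the transverse tubule and the SR. Its values were 666 and 638 in the DMSO pair, 185 and 200 in the ET-3 pair, and 196 and 198 in the NT pair. With a log2 fold change of -1.76 and -1.72 (standard error 0.07, adjusted p = 1.54e-08 and 1.96e-08) it had, with Cacng1, the smallest differences of the 10 genes in both comparisons, and it kept 29.5% and 30.2% of its DMSO mean.

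Both calsequestrin genes, which encode the main calcium-binding proteins inside the SR, were nearly absent with either ligand. Casq1 (ENSMUSG00000007122, chr1:172209894-172219868), the form of fast fibres, had values of 614 and 613 in the DMSO pair, 0 and 0 in the ET-3 pair, and 0 and 3 in the NT pair. It was at least 179-fold lower with ET-3, against a floor of 3 reads per library, and by reads 376-fold lower with NT (95% counting interval 146 to 1381). Its log2 fold change was -9.26 and -8.26 (standard error 0.56, adjusted p = 3.48e-07 and 8.23e-07). Both values depend on the pseudocount, with -6.95 and -6.61 at pseudocount 5, and the NT value was -7.26 without NT replicate 1 and -9.26 without NT replicate 2. Casq2 (ENSMUSG00000027861, chr3:102086415-102146514), the form of heart and slow fibres, had values of 1297 and 1409 in the DMSO pair, 2 and 1 in the ET-3 pair, and 4 and 1 in the NT pair. By reads it was 789-fold lower with ET-3 (269.6 to 3828) and 551-fold lower with NT (253 to 1502). Its log2 fold change was -9.11 and -8.74 (standard error 0.41, adjusted p = 5.03e-08 and 7.32e-08), or -7.71 and -7.53 at pseudocount 5, and the NT value was -9.40 without NT replicate 1 and -8.08 without NT replicate 2. Among all tested genes, with pseudocount 1, Casq1 ranked 9 from the lowest log2 fold change with ET-3 and 22 in the NT pair, and Casq2 ranked 12 and 11. Both genes passed the filter only through the DMSO libraries, so these ranks are a description and add no support.

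Atp2a1 (ENSMUSG00000030730, chr7:126445858-126463108), the SR calcium pump of fast fibres, had values of 2204 and 2502 in the DMSO pair, 55 and 49 in the ET-3 pair, and 89 and 66 in the NT pair. Its log2 fold change was -5.47 and -4.92 (standard error 0.13, adjusted p = 1.71e-09 and 3.14e-09, limma, Benjamini-Hochberg). It fell to low values that were still measured by 91 reads with ET-3 and 189 reads with NT. Of its 3477 exonic bases, 763 are shared with Rabep2 on the opposite strand. In all, 7 of the 10 genes share between 34 and 1309 exonic bases with a gene on the opposite strand, most of them in Cacna1s (1309 of 6550 bases, with Gm37759), and whether the counting used strand is not given for these values.

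**Figure D2:**
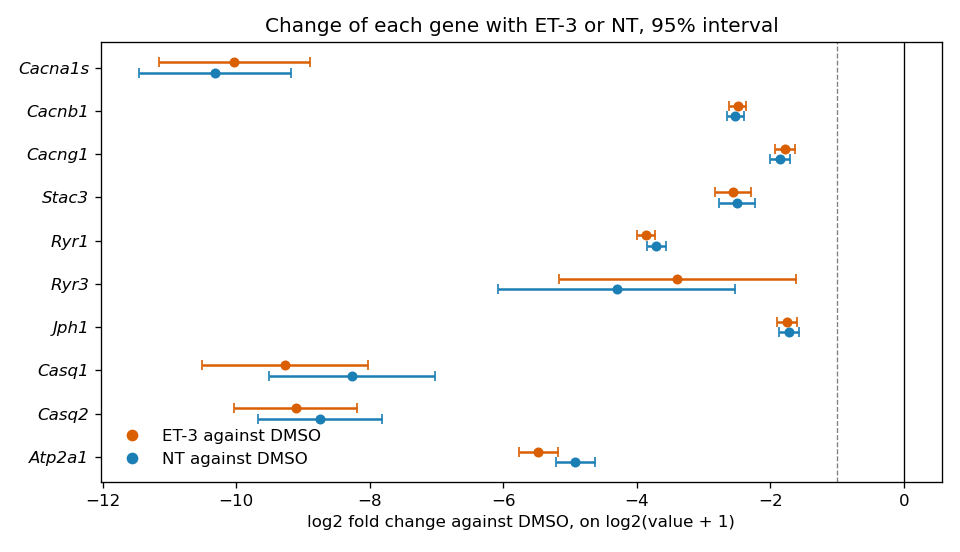
Log2 fold change of each gene against DMSO, on the log2(value + 1) scale, with ET-3 (orange) and NT (blue) and bars for the 95% interval from limma over all 6 libraries; the dashed line marks a 2-fold decrease. Cacng1 and Jph1 lie nearest to it at -1.72 to -1.86, and Cacna1s lies farthest at -10.03 and -10.32.

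Levels of different genes can be compared only per length, so the values were also divided by the kilobases of exon of each gene. With DMSO the mean level per kb was 677 for Atp2a1, 495 for Casq2, 480 for Cacng1, 314 for Casq1, 285 for Stac3, 275 for Cacna1s, 265 for Cacnb1, 206 for Ryr1, 130 for Jph1 and 1.42 for Ryr3. The ranges of Casq2 and Cacng1 overlapped and those of the other neighbours in this order did not. The middle of this order depends on the length used. With the longest transcript Stac3 (405) and Cacnb1 (354) stood above Casq1 (332), and Ryr1 (293) beside Cacna1s (289), and Casq2 (507 to 551) no longer overlapped Cacng1. With ET-3 the order was led by Cacng1 at 140 per kb, then Stac3 at 48.2 and Cacnb1 at 47.0, which overlapped, Jph1 at 38.5, and Atp2a1 at 14.96 and Ryr1 at 14.1, which overlapped too. With NT the same genes stood at 132 for Cacng1, 50.5 for Stac3, 46.0 for Cacnb1, 39.4 for Jph1, 22.3 for Atp2a1 and 15.7 for Ryr1, and only Stac3 and Cacnb1 among them overlapped. Casq2, Casq1, Cacna1s and Ryr3 were below 1 per kb with either ligand. Atp2a1 thus led with DMSO and ranked 5 with each ligand, while the gamma subunit Cacng1 led in the treated cultures.

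Ratios between related genes within a library do not depend on the scaling. The ratio of Atp2a1 to Atp2a2, the pump gene found in most cell types, was 1.61 and 1.69 per kb in the DMSO pair, 0.0417 and 0.0387 in the ET-3 pair, and 0.0782 and 0.0600 in the NT pair. Atp2a2 itself had values of 2390 and 2590 in the DMSO pair, 2309 and 2213 in the ET-3 pair, and 1991 and 1923 in the NT pair, a log2 fold change of -0.14 and -0.35 (standard error 0.05, adjusted p = 0.0333 and 0.000175). The order of these pump genes was reversed in all 4 treated libraries. With DMSO the ratio of Casq1 to Casq2 was 0.664 and 0.610 and that of Ryr1 to Ryr3 was 126 and 168. Too few reads were left with the ligands to compare these pairs. For 2 against 4 libraries an exact permutation test cannot go below 0.0667, so the ratios are given without a test.

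Setting NT directly against ET-3 found 0 of the 10 genes past the thresholds in limma with Benjamini-Hochberg adjusted values, where 0.079% of all tested genes passed. At an unadjusted p under 0.05 there were 2 of the 10, Atp2a1 and Ryr1, beside 19.9% of all tested genes, and with voom weights on recovered reads 1, Atp2a1, beside 20.7%. Atp2a1 was higher with NT by 0.55 on the log2 scale (95% interval 0.26 to 0.85, adjusted p = 0.0586, limma, Benjamini-Hochberg, range over the alternatives 0.0227 to 0.712), and both NT libraries lay above both ET-3 libraries. Ryr1 was higher by 0.16 (0.02 to 0.30, adjusted p = 0.198). The interval of the difference ran from -0.16 to 0.10 for Cacnb1, from -0.23 to 0.07 for Cacng1, from -0.11 to 0.18 for Jph1 and from -0.21 to 0.32 for Stac3. For Cacna1s, Ryr3, Casq1 and Casq2, with at most 6 scaled reads per treated library, it was wider, from -1.43 to 0.85, from -2.68 to 0.87, from -0.25 to 2.25 and from -0.56 to 1.29. A difference between the ligands was not detectable in these 4 genes at this depth.

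The other genes of the pathway were examined in 5 lists of 62 genes, of which 56 had a row and 55 were tested. Of these 23 fell and 3 rose with ET-3, and 20 fell and 4 rose with NT. Falls close to 2-fold depended on the scaling. With each library scaled to its total 19 fell with ET-3, without Atp2b4, Cacna1c, Cacnb3 and Homer1, and 18 with NT, without Bin1 and Mcu. With a mean of at least 20 the counts were 19 and 16. In 6 of the 55 genes (Trdn, Hrc, Sln, Mrln, Pvalb and Scn4a) both treated means were under 5, so that they passed the filter only through the DMSO libraries. Among all tested genes 14.9% fell and 6.62% rose with ET-3, and 13.2% fell and 7.3% rose with NT. The list of triad partners holds proteins that sit with the 10 genes at the triad. Of its 14 genes 9 fell and 0 rose with each ligand, though not the same 9, with medians of -1.54 and -1.54. Trdn and Hrc, counted with both ligands, passed the filter only through DMSO. Homer1 passed with ET-3 only (-1.06, and -0.79 with NT) and Fkbp1b with NT only (-1.56, and -0.81 with ET-3). Set directly against ET-3, NT differed by 0.27 in Homer1 and -0.75 in Fkbp1b (adjusted p = 0.0426 and 0.239, limma, Benjamini-Hochberg). Trdn, which encodes triadin, the anchor of calsequestrin at the ryanodine receptor, had values of 441 and 487 in the DMSO pair and 0 in all 4 treated libraries, and was at least 135-fold lower with ET-3 and 189-fold lower with NT. Hrc, a calcium-binding protein inside the SR, went from 1050 and 1148 to 0 and 0 in the ET-3 pair, at least 321-fold lower, and to 3 and 1 in the NT pair. Tmem38a, the counter-ion channel TRIC-A of the SR, fell from 925 and 975 to 37 and 42 in the ET-3 pair and to 40 and 39 in the NT pair. Cacng6, another gamma subunit, fell from 366 and 377 to 17 and 23 and to 19 and 19. Not every gene of this list followed. Asph, whose gene also yields junctin, had a log2 fold change of -0.10 with ET-3 and 0.03 with NT (adjusted p = 0.0791 and 0.603), and Fkbp1a, a small protein that binds ryanodine receptors and many other targets, had 0.20 and -0.03 (adjusted p = 0.00910 and 0.622). The value of Asph sums all transcripts of the gene, so a change of junctin alone cannot be seen in it. Asph, Fkbp1a, Homer1 and Fkbp1b were chosen after their values were seen.

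The list of the SR pump and its small regulators had 5 tested genes, of which 3 fell with each ligand, all of them among those that passed the filter only through DMSO. The count and the median therefore describe these genes and support nothing more. Sln, which encodes the pump inhibitor sarcolipin, went from 40 and 45 to 0 in all 4 treated libraries, at least 12.4-fold lower with ET-3 and 17.3-fold lower with NT. Mrln, another micropeptide inhibitor of the pump, went from 49 and 48 to 1 and 0 in the ET-3 pair and to 3 and 3 in the NT pair. Pvalb, a calcium buffer of the fast fibre cytosol, went from 24 and 44 to 1 and 0 in the ET-3 pair and to 0 and 0 in the NT pair, at least 13.9-fold lower with NT. The median of the list was -4.57 with ET-3 (-3.63 with Sln at its bound) and -3.63 with NT. In this list the genes that fell were few in reads, and the others were the pumps Atp2a2 and Atp2a3. Of these Atp2a3 was higher by 0.51 and 0.61, less than 2-fold (adjusted p = 0.0473 and 0.0215, limma, Benjamini-Hochberg). Its values were 207 and 119 in the DMSO pair, 228 and 219 in the ET-3 pair, and 225 and 258 in the NT pair. DMSO replicate 1 thus lay close to the treated libraries.

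Of 7 genes of the transverse tubule 4 fell with each ligand, though not the same 4, and 0 rose, with medians of -1.28 and -1.03. Over all tested genes 14.9% fell with ET-3 and 13.2% with NT. Scn4a, counted with both ligands, passed the filter only through the DMSO libraries. Scn4a, the muscle sodium channel that carries the action potential into the tubule, went from 552 and 595 to 0 and 0 in the ET-3 pair, at least 167-fold lower, and to 1 and 2 in the NT pair. Cav3, the muscle caveolin, fell from 441 and 453 to 5 and 12 and to 18 and 11. Dysf, which encodes dysferlin, fell from 800 and 852 to 102 and 90 and to 89 and 99. Mtm1, the phosphatase myotubularin, had log2 fold changes of -1.28 (adjusted p = 0.000213) and -0.89 (0.00244) and passed the 2-fold threshold with ET-3 only, and Bin1, which shapes the tubule membrane, had -0.86 (adjusted p = 2.90e-07) and -1.03 (9.25e-08) and passed it with NT only. The difference between the ligands did not pass in either gene (adjusted p = 0.287 and 0.107, limma, Benjamini-Hochberg). Bin1 was named after its values were seen.

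Paralogs of the 10 genes that other tissues use were examined next. Of 14 listed paralogs 10 had a row and 9 were tested, and their median was 0.56 with ET-3 and 0.47 with NT. With ET-3, 2 fell and 0 rose, and with NT 0 fell and 1 rose. Over all tested genes 14.9% fell and 6.62% rose with ET-3, and 13.2% fell and 7.3% rose with NT. Counts this small among 9 genes are not read as a result about the list. Those that fell were Cacna1c, the pore of the cardiac and smooth muscle calcium channel, at -1.03 (adjusted p = 0.0122) from 24 and 23 to 11 and 11, and Cacnb3, at -1.03 (adjusted p = 1.45e-05) from 267 and 299 to 151 and 126. The gene that rose was Cacnb2, at 1.20 (adjusted p = 0.00425) from 12 and 13 to 31 and 29. The other ligand gave -0.68 for Cacna1c, -0.91 for Cacnb3 and 0.68 for Cacnb2, and the difference between the ligands did not pass in any of them (adjusted p = 0.569, 0.578 and 0.351). Stac2, a relative of Stac3, had values of 256 and 274 in the DMSO pair, 530 and 493 in the ET-3 pair, and 493 and 511 in the NT pair, a log2 fold change of 0.95 and 0.92 that stayed under 2-fold (adjusted p = 6.24e-07 and 8.20e-07, limma, Benjamini-Hochberg). With each library scaled to its total it passed, at 1.03 and 1.03. Stac2 was chosen after its values were seen.

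The last list held 21 genes of the general calcium store and the plasma membrane, 20 of them tested. With ET-3, 5 fell and 3 rose, and with NT 4 fell and 3 rose, with medians of 0.04 and -0.23. Over all tested genes 14.9% fell and 6.62% rose with ET-3, and 13.2% fell and 7.3% rose with NT. The genes that rose were the 3 inositol trisphosphate (IP3) receptors, the calcium release channels of the endoplasmic reticulum that open after activation of phospholipase C. Itpr1 had values of 251 and 238 in the DMSO pair, 753 and 785 in the ET-3 pair, and 756 and 824 in the NT pair, and rose by 1.65 and 1.69 on the log2 scale (standard error 0.06). Itpr2 had values of 150 and 121, 349 and 358, and 362 and 409, and rose by 1.38 and 1.51 (standard error 0.10). Itpr3 had values of 196 and 182, 978 and 927, and 890 and 997, and rose by 2.33 and 2.31 (standard error 0.07). In all 3 genes each treated library lay above both DMSO libraries, as it did in 38.9% of all tested genes with ET-3 and 38.9% with NT. Stim1, the calcium sensor that opens store-operated channels, fell from 445 and 446 to 142 and 131 in the ET-3 pair and to 162 and 162 in the NT pair, a log2 fold change of -1.70 and -1.45. The other genes that fell were named after their values were seen. They were Orai1 (-1.33 and -1.34), the channel that Stim1 opens, the sodium-calcium exchanger Slc8a3 (-1.43 and -1.41), the mitochondrial calcium uniporter Mcu (-1.17 and -1.07) and, with ET-3 only, the plasma membrane pump Atp2b4 (-1.05). Relatives of Stim1 and Orai1 differed by less than 2-fold and in both directions. Stim2 was lower (-0.63 and -0.63), and Orai2 (0.71 and 0.75) and Orai3 (0.30 and 0.36) were higher. They too were named after their values were seen. For Atp2b4 the NT value was -0.58, and the ligands differed by 0.47 (adjusted p = 0.0443, limma, Benjamini-Hochberg).

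When NT was set against ET-3 directly, a few genes of the calcium lists passed the adjusted p of 0.05 without reaching 2-fold, and they were picked after their values were seen. In the list of the general calcium store and plasma membrane, 3 of 20 genes were lower and 1 higher with NT, beside 2.05% and 0.647% of all tested genes. Among the lower genes were Calr (-0.34) and Canx (-0.25), calcium-binding chaperones of the endoplasmic reticulum (adjusted p = 0.0379 and 0.0427, limma, Benjamini-Hochberg). The higher gene was Atp2b4. Calr had values of 1160 and 1331 in the DMSO pair, 1326 and 1286 in the ET-3 pair, and 1045 and 1015 in the NT pair. Library depth also differed between these 2 groups and was higher with NT, with 4986598 and 5396233 reads on genes with NT and 3629074 and 3931898 in the ET-3 pair. The part of depth in these values was not tested. These adjusted p-values, those of Atp2b4 and Homer1 included, depended on the fit. With a replicate block, with no filter, with 2 groups alone and without any single library, limma left 0 genes under that threshold, although 1455 to 3110 had an unadjusted p under 0.05. Averaging each treated pair, which sets 1 sample against 1 with the spread of the DMSO pair, also left 0, with 652 genes or 4.68% at an unadjusted p under 0.05.

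**Figure D3:**
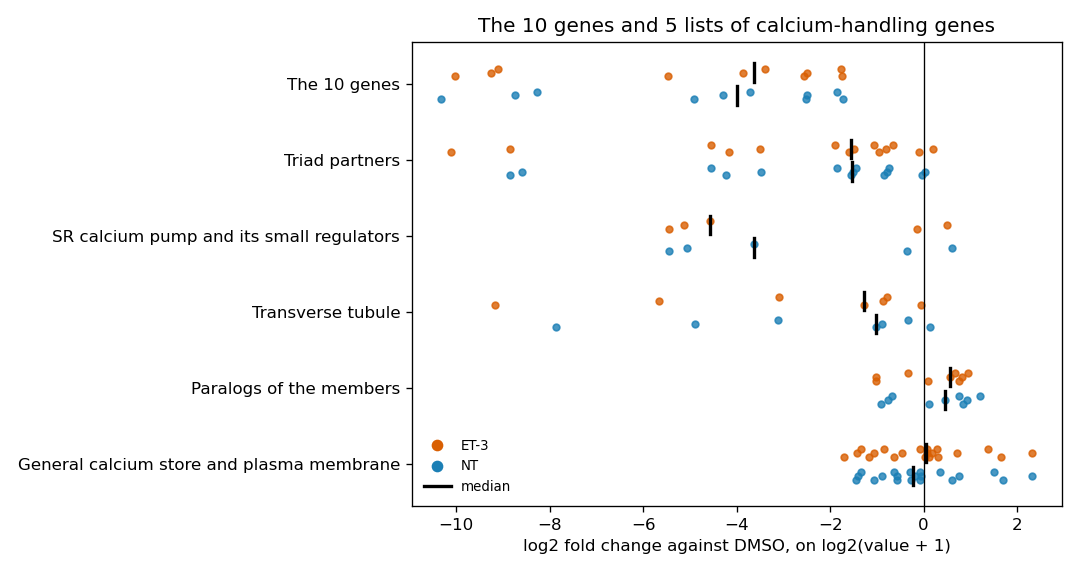
Log2 fold change against DMSO, on the log2(value + 1) scale, of the 10 genes and of the tested genes in 5 lists of calcium-handling genes, with 1 point per gene for ET-3 (orange) and for NT (blue) and a black bar at each median. The medians are -3.63 and -4.00 for the 10 genes and 0.56 and 0.47 for their paralogs. Those of the 10 genes include Cacna1s, Ryr3, Casq1 and Casq2, which passed the filter only through the DMSO libraries and lower them. The 3 points farthest to the right in the last list are the IP3 receptors.

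Per kb of exon, the release channels of both kinds exchanged their order. Ryr1 and Ryr3 together stood at 201 and 214 per kb in the DMSO libraries, 13.6 and 14.97 in the ET-3 pair, and 15.5 and 16.0 in the NT pair, and Ryr1 made up nearly all of it. The 3 IP3 receptors together stood at 45.6 and 41.3 in the DMSO pair, 173 and 169.8 in the ET-3 pair, and 164 and 183 in the NT pair. The ryanodine receptors were 4.42 and 5.17 times the IP3 receptors in the DMSO libraries, whereas the IP3 receptors were 12.7 and 11.3 times the ryanodine receptors with ET-3 and 10.6 and 11.4 times with NT. This sum was formed after the values were seen and is given without a test.

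**Figure D4:**
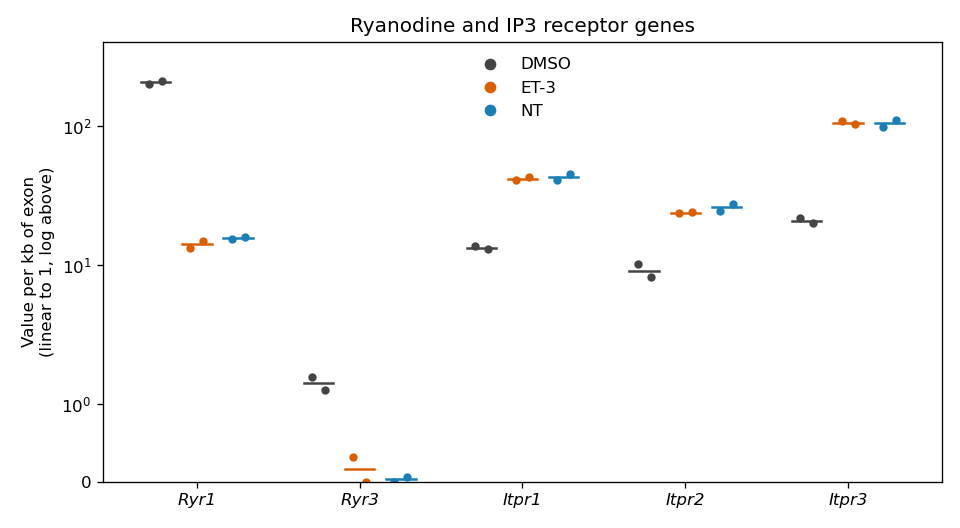
Level per kb of exon (scaled reads per kb, axis linear up to 1 and logarithmic above) of 2 ryanodine receptor and 3 IP3 receptor genes, with 1 point per library for DMSO (grey), ET-3 (orange) and NT (blue) and lines at the group means. Ryr1 goes from 206 with DMSO to 14.1 with ET-3 and 15.7 with NT, and Itpr3 from 21.0 to 106 and 105.

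Markers of the labelled cell type were present in every library. The 9 MuSC and myogenic markers summed to 11102 and 12341 in the DMSO pair, 8758 and 8498 in the ET-3 pair, and 7656 and 7284 in the NT pair, and they moved in different directions. Pax7, the transcription factor of MuSCs, had values of 857 and 1070 in the DMSO pair, 1754 and 1730 in the ET-3 pair, and 1653 and 1599 in the NT pair, and Myod1 had 1324 and 1444, 1539 and 1449, and 1192 and 1100. Myog and Mymk, markers of differentiation and fusion, moved with the 10 genes. Myog went from 1157 and 1335 to 28 to 38 in the treated libraries, and Mymk from 956 and 1043 to 36 to 47. Cdh15, the cadherin of muscle precursors, also fell, from 1547 and 1746 to 436 to 496. The log2 fold changes with ET-3 and NT were -0.34 and -0.69 for Des, -0.18 and -0.42 for Itga7 and -0.08 and -0.26 for Myf5. Vcam1 was higher, by 0.50 and 0.67. The summed level of 6 smooth muscle and pericyte markers also moved with the 10 genes. It went from 2356 and 2815 in the DMSO pair to 748 and 798 in the ET-3 pair and 925 and 878 in the NT pair. Notch3, which led the sum with DMSO, went from 1397 and 1773 to 284 to 409. Pdgfrb went from 227 and 278 to 3 to 13, and Rgs5 from 117 and 150 to 2 to 5. Cspg4 changed less, from 610 and 612 to 433 to 509, while Myh11 stood at 0 to 4 and Kcnj8 at 0 to 2 in all libraries. For 3 of 6 cardiac markers with a row the sum went from 1379 and 1476 to 409 to 479, led by Tnnt2, and for 4 of 6 fibroadipogenic markers from 136 and 147 to 64 to 90, with Col15a1 going from 80 and 82 to at most 1, Ly6a from 27 and 18 to 37 to 52, and Pdgfra from 20 and 30 to 26 to 44. The 4 of 6 Schwann cell markers summed to 3463 and 3666 in the DMSO pair and 2331 to 2404 with the ligands, led by Ncam1, whereas Ngfr went from 93 and 115 to 591 to 644. The sum of 5 of 6 endothelial markers went the other way, from 12 and 27 to 88 to 107, led in the treated libraries by Tek, with Cdh5 at 0 to 5 and Flt1 at 0 to 3. The 2 of 6 macrophage markers stayed between 21 and 45. The part of these markers in the results was not tested.

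Over the 6 libraries, the genes whose centred log2 profile was most like the mean profile of the 10 genes were Gm17455, Gm42837, Cidea, 2900079G21Rik and Cd27. Their root mean square difference from it was 0.0976 to 0.132 on the log2 scale. All 5 had values of 25 to 35 with DMSO and 0 in the treated libraries, so this likeness rests on low values and says nothing of shared function. Among the 10 genes Atp2a1 lay nearest to the mean profile, at 0.31, and Cacna1s farthest, at 2.54.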

How the data were processed

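RNA-seq of 6 libraries was used, 2 each with DMSO, ET-3 and NT, grouped by their labels. The 10 genes, the gene lists and the tests were chosen with earlier results of these data known. Per the labels and the submitters' processing notes, SMART-Seq HT libraries were made, and reads were processed with FastQC, Trimmomatic 0.38, STAR 2.7.7a on mm10, featureCounts 1.6.5 and DESeq2 1.30.0. The paper's methods name a stranded kit and other versions, and the strand setting of the counting is not given in the sources used here. The deposited table holds a read signal per gene and library, which the authors made from read counts by scaling each library with its own factor and rounding. The factors were recovered from the whole numbers that no gene takes or that are rare. In DMSO replicate 2 and ET-3 replicates 1 and 2, 51, 64 and 34 whole numbers cannot be reached, and 0 genes lay at them. For the other libraries, with factors below 1, the factor is the best fit to the frequency of each number. The other columns of the table hold annotation only and were not used. Some of the listed genes are not reported here.

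The values were used without further scaling, with pseudocount 1 on the log2 scale. Fold changes from the fit are on the log2(value + 1) scale, where those of genes with low values depend on the pseudocount. limma 3.58.1 in R 4.3.3 (lmFit, contrasts and eBayes with trend) was fitted over all 6 libraries, with Benjamini-Hochberg adjustment over 13921 genes in each comparison, and was checked on simulated data. The values are not raw counts, so no count model was run. Folds by reads have exact 95% counting intervals, and a group without reads was set at 3 reads per library. Positions and exon lengths came from the GENCODE annotation of GRCm38, which matched 18920 of 18943 genes. RefSeq promoter windows came from GRCm38.p6. All 10 genes were named, and from each list the genes past the thresholds, or the 4 with the largest mean difference where there were more than 4, with any that moved against most of its list. Alternatives covered the filter (no filter, or a mean of at least 20), the scaling (library total, upper quartile), the pseudocount (0.5 and 5), a replicate block, 2 groups alone, treated pairs averaged, voom weights, each library left out, and transcript length. Tables and plots were made with numpy 2.4.6, matplotlib 3.10.9 and pandas 2.3.3 in Python 3.11.15.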

Additional observations from a re-analysis of the deposited data

How the results depend on the processing

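With each alternative that could be fitted, all 10 genes kept their direction against DMSO, and 9 or 10 passed the thresholds. Cacna1s, Ryr3, Casq1 and Casq2, which passed the main filter only through DMSO, add no support to these counts. Ryr3 made the difference. It was removed by a mean of at least 20, and its ET-3 log2 fold change was -3.24 without DMSO replicate 1 and -3.55 without DMSO replicate 2, and its NT value -4.14 without DMSO replicate 1, with adjusted p above 0.05 in limma. The replicate numbers did not pair the libraries (correlations of deviations -0.00798 to -0.0704), and the fit with a replicate block changed no call of the 10 genes. The number of genes that differed between NT and ET-3 was unstable, at 11, and 0 with a replicate block, with no filter, with 2 groups alone, with treated pairs averaged and without any single library (0 to 0), and 7 with pseudocount 5. At an unadjusted p under 0.05, limma gave 2628, 3110, 2990 and 652 genes in the first 4 of these, and 1455 to 2902 without a single library. Of the NT minus ET-3 differences of the 10 genes, none of which passed, the sign turned in 8 values. These lay in all 4 fits that left out a treated library. Leaving out a DMSO library cannot change these differences. The values over the 6 fits ran from -0.15 to 0.26 for Stac3 (-0.0093 without ET-3 replicate 1, -0.15 without NT replicate 2), -0.022 to 0.090 for Jph1, -2.31 to 0.50 for Ryr3, -1.08 to 0.50 for Cacna1s (0.21 without NT replicate 1), -0.29 to 1.03 for Casq2 and -0.076 to 0.014 for Cacnb1. With the length of the longest transcript in place of all exons, DMSO levels per kb were 289 for Cacna1s, 354 for Cacnb1, 405 for Stac3, 293 for Ryr1, 1.75 for Ryr3, 136 for Jph1, 332 for Casq1 and 529 for Casq2, and the ratio of Atp2a1 to Atp2a2 was 1.54. Library totals moved the median of all tested genes to 0.08 with ET-3 and 0.10 with NT. The planned edgeR and DESeq2 fits were not run, because the values are scaled and rounded. With 2 libraries per group and treated pairs as alike as repeated sampling, the spread between cultures is not measured.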
